A study of Mus musculus with 6 samples.

Results

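The 2 receptor genes of glial cell line-derived neurotrophic factor (GDNF), Gfra1 and Ret, and 5 genes of transcription factors that GDNF maintains in spermatogonial stem cells, Etv5, Bcl6b, Lhx1, Pou3f1 and T, were followed in cultured mouse spermatogonia after Cre-mediated targeting of Cdkn1c, which encodes p57, an inhibitor of the cell cycle. The members were found by symbol, 7 of the 32285 genes of the count table. The cells were GS cells, germline stem cell cultures derived from mouse testis, and every library came from cells with loxP sites on both alleles of Cdkn1c. The 3 p57 KO libraries carry the genotype p57 flox/flox-Cre, with Cre delivered by an adenovirus, and the 3 control libraries carry p57 flox/flox. RNA was taken 2 days after the infection, after trypsin had made single cells and a Sephadex column had purified them. The labels name BDF1 as the model, while the design text names C57BL/6 and 129 strains. The mice were 3 days old per the growth protocol and 10 days old per the design text. Neither the control virus, if any, nor the number of animals or cultures behind the libraries is given in the sources used here. The p-values therefore reflect how far the libraries of a group spread, and that spread may be technical only.

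GDNF binds GFRA1, a co-receptor anchored to the cell surface by a lipid, and the pair then engages RET, a receptor tyrosine kinase. RET passes the signal through adaptor proteins to SRC family kinases, the PI3K-AKT route and the RAS-ERK route. In the testis GDNF comes from the somatic cells around the germ cells, and GS cells are usually grown with GDNF in the medium. Several transcription factor genes depend on this signal in mouse spermatogonia, among them Etv5, which encodes an ETS family factor, and Bcl6b, which encodes a zinc finger repressor.

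Total counts lay between 15662833 and 17893671 per library. Levels are in CPM, the counts of a library scaled to a common total, after normalization by trimmed means (TMM), and a gene was called changed at an edgeR adjusted p under 0.05 over all 14814 genes tested. "Rose" and "fell" are used for called genes only. Cdkn1c, the targeted gene, had 8.89 ± 0.486 CPM in p57 KO and 20.7 ± 0.782 CPM in control (SD, n = 3 each), so that 42.9% of the control level was left. Of 11 spermatogonia markers all were detected, with summed levels of 2598 to 2702 CPM in p57 KO and 2901 to 2995 CPM in control. Among them the germ cell genes Dazl and Ddx4 had 939 ± 31.1 and 389 ± 1.88 CPM in p57 KO, against 1115 ± 45.8 and 401 ± 1.34 CPM in control (SD, n = 3 each). Markers of fibroblasts and feeder cells were also present, and their 16 genes summed to 1301 to 2486 CPM in p57 KO and 858 to 1066 CPM in control. Most of this sum came from Fn1 and Col5a1 in control. They had 842 ± 311 and 348 ± 28.8 CPM in p57 KO, against 414 ± 55.2 and 286 ± 6.96 CPM in control (SD, n = 3 each). The 5 macrophage markers summed to 17.5 to 21.1 CPM in p57 KO and 12.7 to 13.6 CPM in control, most of it from Cd68. For 8 Sertoli cell markers the sum was 29.3 to 30.1 CPM in p57 KO and 29.2 to 32.7 CPM in control, and for 5 Leydig cell markers 3.14 to 3.29 CPM in p57 KO and 2.94 to 3.88 CPM in control, with Hsd3b1 at 0 in every library.

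Of the 7 genes, 5 fell in p57 KO and 0 rose. Among all tested genes 11.6% fell and 11.6% rose, 23.3% together. The genes that fell were Ret, Lhx1, Etv5, Gfra1 and Bcl6b, and Pou3f1 and T were not called. The falls were modest, to between 79.0% and 93.6% of the control level. The median log2 fold change of the 7 genes was -0.16, against -0.0019 for all tested genes. No member was higher at an unadjusted p under 0.05 in edgeR, DESeq2 or limma-voom. All 7 genes passed the filter on low counts, T with the fewest reads at 140 to 184 per library. In bulk RNA, fewer cells that express a gene and less RNA per cell cannot be told apart. The level plots by library show every value behind these counts.

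**Figure D1:**
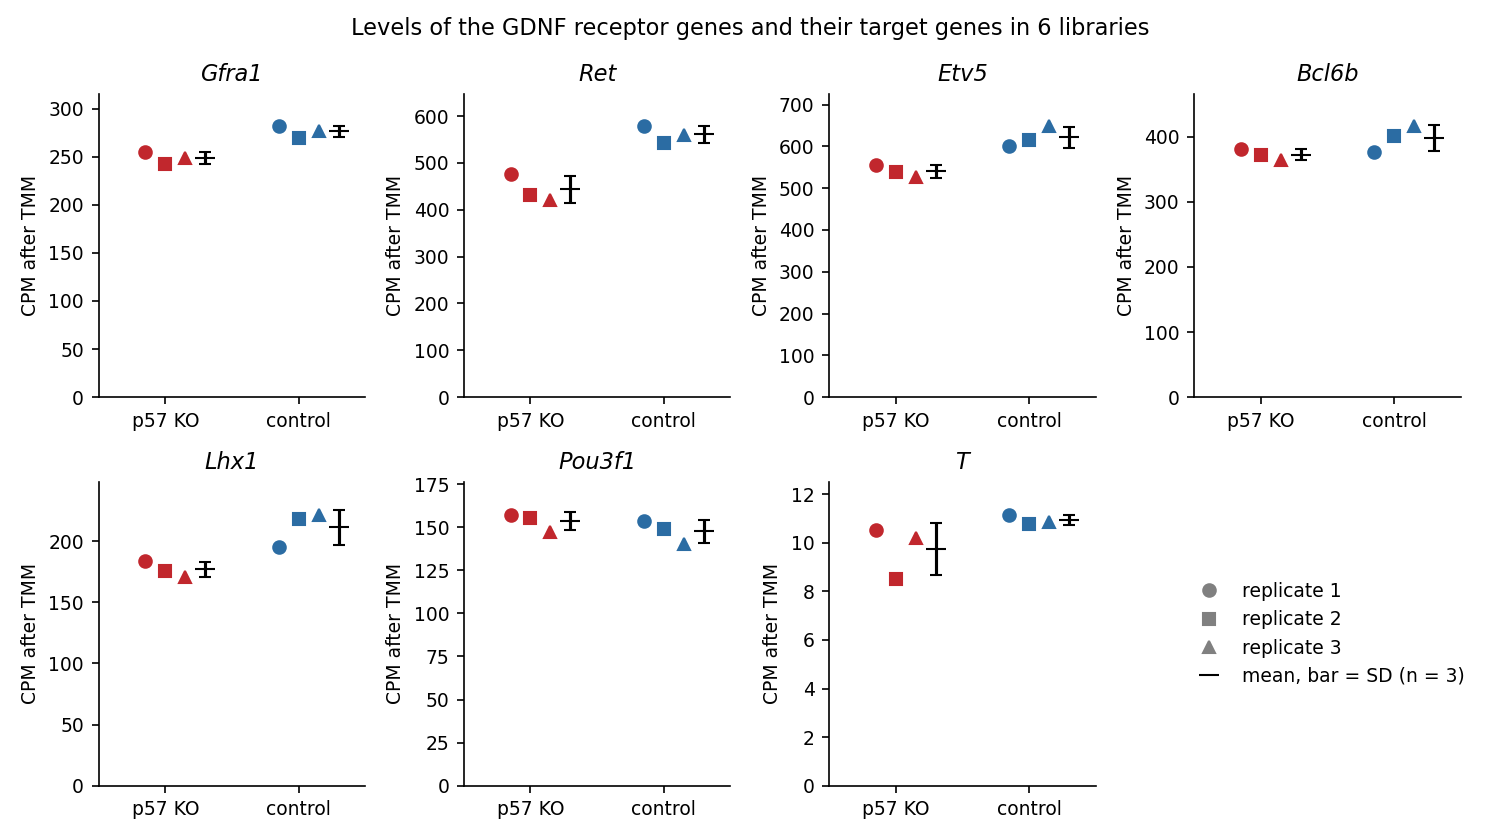
Levels in CPM after TMM of the 7 genes in 3 p57 KO libraries (red, left) and 3 control libraries (blue, right), with the mean and SD of each group in black. Every vertical axis starts at 0. Ret shows the widest gap, with 422 to 476 CPM in p57 KO and 543 to 579 CPM in control, while the groups overlap for Bcl6b and Pou3f1.

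The receptor genes both fell. Ret, on the minus strand of chromosome 6 (chr6:118151745-118197718, mm10), encodes the signalling kinase of the complex. Its level was 476, 432 and 422 CPM in the p57 KO libraries, against 579, 543 and 560.2 CPM in the control libraries. The groups were separate, and p57 KO replicate 3 was the lowest library. In means that is 443 ± 28.7 CPM in p57 KO and 561 ± 17.8 CPM in control (SD, n = 3 each). The log2 fold change was -0.34 (SE 0.04; adjusted p = 0.000288 in edgeR), a fitted level of 79.0% of control with a 95% interval of 74.0% to 84.4%. Of all tested genes 3.46% had a log2 fold change as low or lower.

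Gfra1, which encodes the part of the receptor that binds GDNF, lies on the minus strand of chromosome 19 (chr19:58235604-58455909, mm10). It had 255, 242 and 248 CPM in p57 KO and 282, 269.8 and 277 CPM in control. Each p57 KO library was below each control library. The means were 249 ± 6.53 CPM in p57 KO and 276 ± 6.09 CPM in control (SD, n = 3 each), and the log2 fold change was -0.15 (SE 0.03; adjusted p = 0.000585 in edgeR), a fitted 90.0% of control with an interval of 86.3% to 93.8%. Gfra1 overlaps Gm16277 on the other strand over 416 exonic bases, and no source used here gives the strand setting of the counting. Gm16277 itself had 0 to 3 counts per library.

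The ratio of Ret to Gfra1 was lower in each p57 KO library than in each control library. Ret had 1.86, 1.79 and 1.70 counts for each count of Gfra1 in the p57 KO libraries, against 2.05, 2.01 and 2.02 in the control libraries. Scaled to exon length, the ratio was 1.51, 1.45 and 1.37 in p57 KO and 1.66, 1.63 and 1.64 in control. The mean log2 ratio of counts was 0.83 ± 0.07 in p57 KO and 1.02 ± 0.01 in control (SD, n = 3 each), a difference of -0.19. An exact two-sided permutation test over the 6 libraries gave p = 0.1, the smallest that 3 against 3 allow. Library scaling cancels in this ratio. Within p57 KO it went down from replicate 1 to 3, while the fibroblast and feeder sums given below went up in that order. The cause of the difference was not tested.

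Among the transcription factor genes, Etv5 and Lhx1 fell most. Etv5 (chr16:22381309-22439719, minus strand, mm10) had 555, 539 and 526 CPM in p57 KO, against 601, 614 and 649 CPM in control. The groups did not overlap, and Etv5 was the most abundant of the 7 genes in every library. The log2 fold change was -0.20 (SE 0.03; adjusted p = 5.5e-05 in edgeR), a fitted 86.9% of control with an interval of 83.2% to 90.8%. Lhx1 (chr11:84518284-84525535, minus strand, mm10) encodes a LIM homeodomain factor. It had 184, 176 and 171 CPM in p57 KO and 195, 218 and 222 CPM in control. Control replicate 1 lay nearest to the p57 KO libraries, yet above all of them. The log2 fold change was -0.26 (SE 0.05; adjusted p = 0.00201 in edgeR), a fitted 83.6% of control with an interval of 77.9% to 89.7%.

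The promoter windows of the called members held by the RefSeq table are shown. ETV5 belongs to the ETS family, whose members bind DNA around a GGAA core. Of the 7 genes 4 had a window in that table (GRCm38.p6, 250 bases before to 50 after a transcription start): Gfra1, Etv5, Lhx1 and T, with 2 starts for Etv5. The letters searched on both strands were CCGGAA and GGAAGT for ETS factors, ATGCAAAT, the octamer of POU factors, and AGGTGTGA for T-box factors. Both ETS motifs hold GGAA and can overlap each other. Capitals mark a match, and all windows are printed 5′ to 3′ on the strand of the gene.
Gfra1, chr19:58455349-58455648, minus strand: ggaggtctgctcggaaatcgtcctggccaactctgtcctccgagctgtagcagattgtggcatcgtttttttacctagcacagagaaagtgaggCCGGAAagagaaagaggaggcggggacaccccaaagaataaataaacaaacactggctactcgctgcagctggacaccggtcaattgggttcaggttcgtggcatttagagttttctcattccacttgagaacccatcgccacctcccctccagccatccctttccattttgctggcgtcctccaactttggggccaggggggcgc
Etv5, upstream start, chr16:22439521-22439820, minus strand: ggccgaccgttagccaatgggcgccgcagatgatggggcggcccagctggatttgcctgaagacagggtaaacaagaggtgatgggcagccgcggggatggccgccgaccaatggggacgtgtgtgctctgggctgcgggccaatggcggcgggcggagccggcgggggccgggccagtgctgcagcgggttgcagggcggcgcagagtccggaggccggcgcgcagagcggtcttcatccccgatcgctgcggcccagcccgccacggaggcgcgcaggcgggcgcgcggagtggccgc
Etv5, downstream start, chr16:22438319-22438618, minus strand: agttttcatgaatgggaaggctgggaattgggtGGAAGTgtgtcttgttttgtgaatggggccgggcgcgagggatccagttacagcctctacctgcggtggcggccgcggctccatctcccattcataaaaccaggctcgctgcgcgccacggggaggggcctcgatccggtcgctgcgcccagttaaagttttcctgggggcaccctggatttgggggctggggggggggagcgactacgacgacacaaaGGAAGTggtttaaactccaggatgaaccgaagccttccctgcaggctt
Lhx1, chr11:84525485-84525784, minus strand: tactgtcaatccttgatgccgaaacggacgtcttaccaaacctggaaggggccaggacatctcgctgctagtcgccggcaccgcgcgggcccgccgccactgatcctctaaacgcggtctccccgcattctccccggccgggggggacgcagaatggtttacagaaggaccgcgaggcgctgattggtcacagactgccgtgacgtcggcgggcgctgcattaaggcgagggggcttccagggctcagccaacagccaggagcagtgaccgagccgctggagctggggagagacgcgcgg

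Gfra1 held CCGGAA at 156 bases before its start, a motif present in 14.9% of all 32851 windows of that length. The downstream start of Etv5 held GGAAGT at 217 bases before the start and again from base 3 after it, and 23.8% of all windows hold this motif. The upstream start of Etv5 and the windows of Lhx1 and T held none of the letters searched. ATGCAAAT occurred in 1.74% and AGGTGTGA in 1.28% of all windows, and in none of these. Ret and Bcl6b, which also fell, had no window. A match is a description of the letters and not a bound site, and a link between these letters and the falls was not tested.

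Bcl6b fell by the smallest amount, and its call was the least stable. This gene (chr11:70224128-70229798, minus strand, mm10) encodes a zinc finger repressor needed for spermatogonial self-renewal in mice. Its level was 381, 372 and 365 CPM in p57 KO and 376, 402 and 416 CPM in control. The groups overlapped, since control replicate 1 was below p57 KO replicate 1. The log2 fold change was -0.10 (SE 0.03; adjusted p = 0.0414 in edgeR), a fitted 93.6% of control with an interval of 89.2% to 98.1%. In edgeR the adjusted p was 0.126 when control replicate 2 was left out and 0.207 for control replicate 3. It was 0.0951 when p57 KO replicate 2 was left out and 0.116 for p57 KO replicate 3. The call held without either replicate 1.

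Pou3f1 and T were not called. Pou3f1 (chr4:124656807-124660655, plus strand, mm10) encodes the POU domain factor OCT6. It had 157, 155 and 148 CPM in p57 KO and 154, 149 and 141 CPM in control, so that the groups overlapped. The log2 fold change was 0.05 (SE 0.04; adjusted p = 0.316 in edgeR), and its 95% interval ran from 98.5% to 109% of control, which holds none of the fitted values of the 5 genes that fell. Pou3f1 shares 330 exonic bases with Gm2164 on the other strand, which had 26 to 37 counts per library. T (chr17:8434423-8442496, plus strand, mm10) encodes brachyury, a T-box factor. It had 10.5, 8.52 and 10.2 CPM in p57 KO and 11.2, 10.8 and 10.9 CPM in control. The groups did not overlap, as for 19.7% of all tested genes with lower values in p57 KO, but the log2 fold change of -0.16 (SE 0.11) had an edgeR adjusted p of 0.297. At 140 to 182 counts per p57 KO library and 170 to 184 per control library, the interval for T ran from 76.3% to 104% of control and included the fitted values of all 5 called members.

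**Figure D2:**
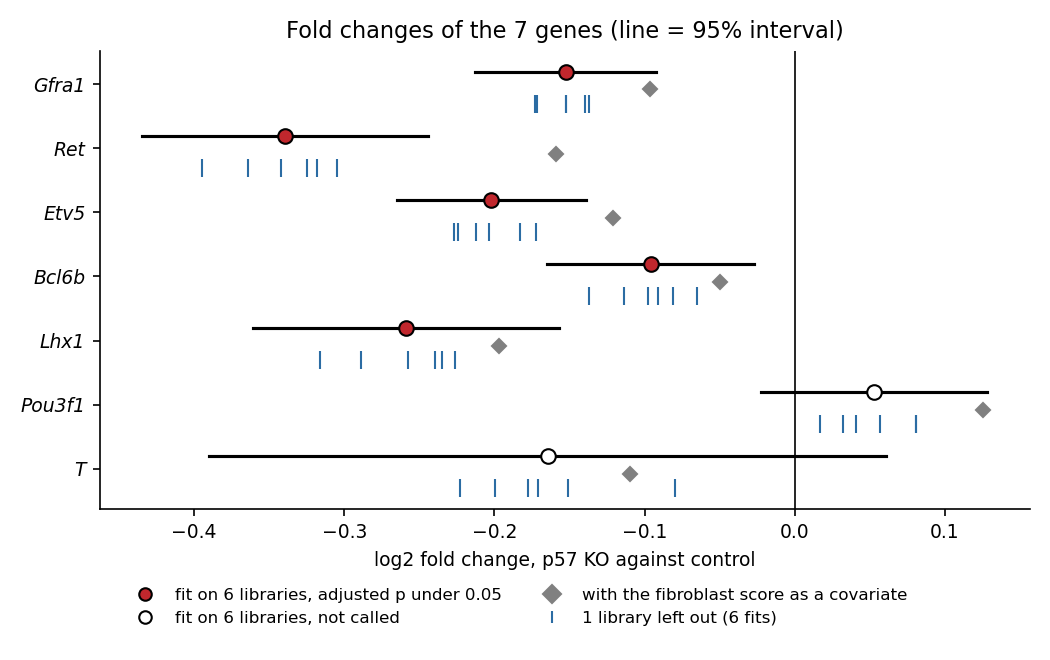
Log2 fold changes of the 7 genes, p57 KO against control, with 95% intervals (circles, red where the edgeR adjusted p was under 0.05), the same fold in the model that also holds the fibroblast score (grey diamonds) and in the 6 fits that leave out a library (blue ticks). Every fitted fold of Ret, Lhx1, Etv5, Gfra1, Bcl6b and T lies below 0 and every fitted fold of Pou3f1 above 0.

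Libraries within a group also differed in a shared way. All 7 genes had their highest p57 KO level in replicate 1, and 5 of the 7 had their lowest in replicate 3, the others (Gfra1 and T) in replicate 2. In control the genes parted: Gfra1, Ret, Pou3f1 and T were highest in replicate 1, while Etv5, Bcl6b and Lhx1 were lowest there and highest in replicate 3. Summed over the 7 genes, the level was 2019, 1926 and 1889 CPM in the p57 KO libraries and 2198, 2206 and 2276 CPM in the control libraries. The sum in every p57 KO library lay below that in every control library.

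Scaled to exon length, the order of levels was the same in both groups apart from the places of Gfra1 and Lhx1. Etv5 was at 132 ± 3.65 CPM per kb of exon in p57 KO and 151 ± 5.98 CPM per kb in control, followed by Bcl6b with 100.2 ± 2.16 CPM per kb in p57 KO and 107 ± 5.43 CPM per kb in control (SD, n = 3 each). Ret was at 65.5 ± 4.24 CPM per kb in p57 KO and 82.9 ± 2.62 CPM per kb in control. Gfra1 and Lhx1 came next, with overlapping ranges in each group and Gfra1 the higher in 4 of the 6 libraries, at 45.4 ± 1.19 and 43.5 ± 1.6 CPM per kb in p57 KO, against 50.5 ± 1.11 and 52.0 ± 3.52 CPM per kb in control. Pou3f1 was at 39.9 ± 1.35 CPM per kb in p57 KO and 38.4 ± 1.74 CPM per kb in control, and T was last with 4.21 ± 0.466 CPM per kb in p57 KO and 4.72 ± 0.0884 CPM per kb in control. Between all other neighbours the ranges of the 3 libraries were separate in each group. On the scale of CPM, 6 of the genes were at or above 88.6% or more of the tested genes, and T at or above 34.5% of them.

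Fibroblast and feeder markers also differed between the groups. Of 16 such markers, all tested, 4 rose (Col5a1, Col6a2, Pdgfra and Twist2) and 0 fell, against 11.6% of all tested genes in each direction. None had a log2 fold change below 0, the median was 1.53, and none was at 0. Their summed level was 1301, 1681 and 2486 CPM in p57 KO replicates 1, 2 and 3 and 858, 1066 and 865 CPM in control replicates 1, 2 and 3. The library with the highest sum, p57 KO replicate 3, also had the lowest level of Ret, Etv5, Bcl6b and Lhx1. Pou3f1, which was not called, also had its lowest p57 KO level there (148 CPM), and a lower one in control replicate 3 (141 CPM). Gfra1 and T were lowest in p57 KO replicate 2. Within control, Etv5, Bcl6b and Lhx1 were lowest in replicate 1, whose sum of 858 CPM was the lowest, close to that of replicate 3. Gfra1, Ret and T were lowest in control replicate 2, which had the highest sum of that group. Without p57 KO replicate 3, 4 of the 7 genes fell, all of the 5 but Bcl6b, against 1277 of all 14991 genes tested. A further edgeR fit took the mean log2 CPM of these markers, called the fibroblast score, as an added term. In it 0 of the 7 genes were called, while Ret, Etv5 and Lhx1 were lower at an unadjusted p under 0.05. Of all 14814 tested genes, 150 fell and 243 rose in that fit. Its errors were wider, with an SE of 0.054 for Gfra1 against 0.029 without the score. The log2 fold change of Ret was then -0.16 (adjusted p = 0.0658 in edgeR), that of Lhx1 -0.20 (0.17), of Etv5 -0.12 (0.222), of Gfra1 -0.10 (0.427) and of Bcl6b -0.05 (0.769), the values in brackets being adjusted p. The score was 4.33 to 5.49 in p57 KO and 3.56 to 4.0 in control, so its part and that of the genotype cannot be told apart in these libraries. Of the 11 spermatogonia markers 5 fell (Dazl, Zbtb16, Sall4, Id4 and Nanos2) and 2 rose (Epcam and Itga6), against 11.6% of all tested genes in each direction, with a median log2 fold change of -0.04.

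**Figure D3:**
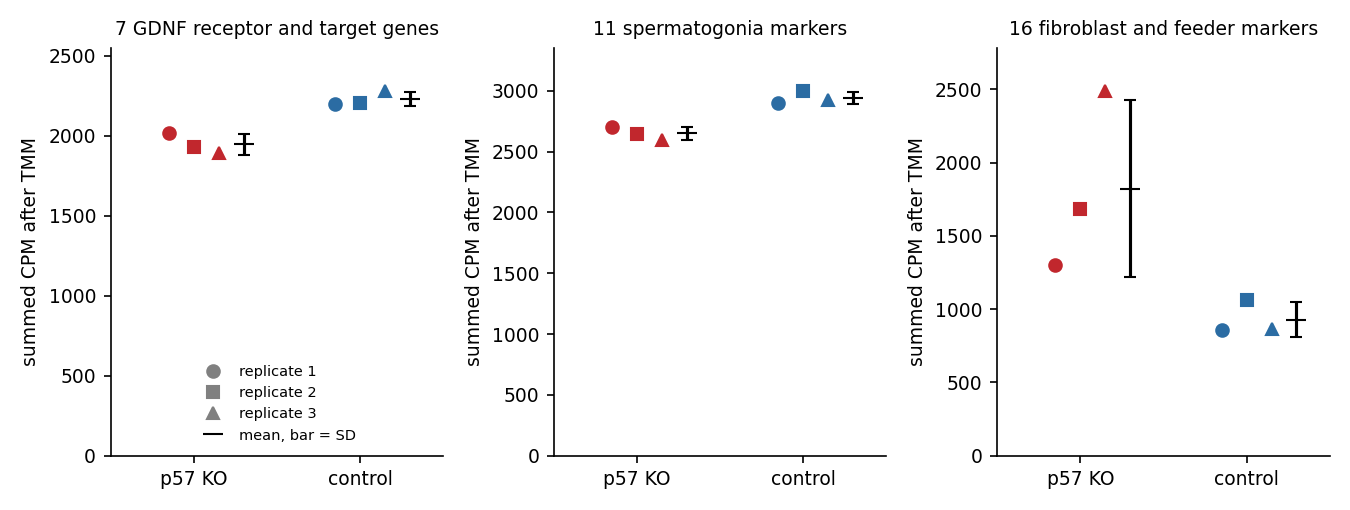
Summed CPM after TMM per library of the 7 genes, of 11 spermatogonia markers and of 16 fibroblast and feeder markers, p57 KO (red, left) and control (blue, right), with mean and SD in black and axes from 0. The 7 genes and the spermatogonia markers are lower in each p57 KO library than in each control library, and the fibroblast and feeder markers are higher.

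Gdnf, the ligand itself, had 3, 1 and 5 counts in the p57 KO libraries and 0, 7 and 0 in the control libraries, and Pspn, the persephin gene, had 0 counts in each p57 KO library and at most 1 per control library, so neither was tested. Of the 3 ligand genes tested, 1 rose and 0 fell in edgeR, against 11.6% of all tested genes in each direction, and none was lower at an unadjusted p under 0.05 in edgeR, DESeq2 or limma-voom. Gdf15, whose product signals through GFRAL and RET, had 3.22 ± 0.344 CPM in p57 KO and 1.10 ± 0.524 CPM in control (SD, n = 3 each), a log2 fold change of 1.55 (SE 0.27; adjusted p = 0.000304 in edgeR). Gfral was at 0 in all libraries. Nrtn, the neurturin gene, had 7.35 ± 1.02 CPM in p57 KO and 5.97 ± 0.695 CPM in control, and Artn, the artemin gene, 2.56 ± 0.451 CPM in p57 KO and 1.96 ± 0.0833 CPM in control (SD, n = 3 each). Their log2 fold changes were 0.30 and 0.39, with edgeR adjusted p of 0.137 and 0.215. With the fibroblast score Gdf15 had a log2 fold change of 1.06 (adjusted p = 0.226 in edgeR).

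Of 7 other co-receptor and surface protein genes tested, 1 rose and 0 fell in edgeR, against 11.6% of all tested genes in each direction, and none was lower at an unadjusted p under 0.05 in edgeR, DESeq2 or limma-voom. Gas1, which encodes a surface protein related to the GFRA family, had 16.7 ± 3.31 CPM in p57 KO and 8.15 ± 0.537 CPM in control (SD, n = 3 each), a log2 fold change of 1.03 (SE 0.13; adjusted p = 2.88e-05 in edgeR). With the fibroblast score it was 0.44 (adjusted p = 0.221 in edgeR). The other GFRA genes were far below Gfra1 per kb of exon. Gfra4 had 5.69 CPM per kb in p57 KO and 5.82 in control, Gfra3 had 0.929 in p57 KO and 1.26 in control, and Gfra2 had 0.903 in p57 KO and 0.906 in control. Their log2 fold changes were -0.03, -0.43 and -0.0040, with edgeR adjusted p of 0.857, 0.234 and 0.993. Sdc3, a heparan sulfate proteoglycan that binds GDNF, had a log2 fold change of 1.49 that was not called in edgeR (adjusted p = 0.0934) but was in DESeq2. Its level was 13.6, 20.9 and 33.2 CPM in p57 KO replicates 1, 2 and 3, in the order of the fibroblast and feeder sums, and with the fibroblast score its log2 fold change was 0.021 (adjusted p = 0.981 in edgeR). Ncam1 and Sorl1 had -0.17 and 0.09, with edgeR adjusted p of 0.274 and 0.286.

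Of 18 tested adaptors, kinases and ubiquitin ligases that act next to RET, 4 fell and 2 rose, with a median log2 fold change of -0.03, against 11.6% of all tested genes in each direction. Fyn, a SRC family kinase, had -0.18, the adaptor gene Grb7 -0.25, and Cblb, a ubiquitin ligase gene, -0.18. The docking protein gene Frs2 had -0.14, and lost its call without control replicate 2 (adjusted p = 0.123 in edgeR), control replicate 3 (0.0507) or p57 KO replicate 2 (0.0941). Dok1 rose by 0.53 and Grb10 by 0.45 as log2 fold changes. With the fibroblast score 0 of the 18 were called, against 150 lower and 243 higher of all 14814 tested genes. Dok1 had 0.20 and Grb10 0.013 (adjusted p = 0.704 and 0.988 in edgeR), and Fyn had -0.039 (0.835). Grb7, Cblb and Frs2 had -0.24, -0.18 and -0.18 in that fit (adjusted p = 0.201, 0.169 and 0.254 in edgeR). Its errors were wider, with an SE of 0.097 for Grb7 against 0.050 without the score.

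Of 10 RAS-ERK kinase and RAS genes, 5 fell and 0 rose in edgeR, none being higher at an unadjusted p under 0.05 in edgeR, DESeq2 or limma-voom, and the median log2 fold change was -0.09, against 11.6% of all tested genes in each direction and a median of -0.0019. DESeq2 called 3 lower, and 1044 of all 14814 tested genes. With the fibroblast score edgeR called 0, with 3 of the 10 (Mapk3, Map2k1 and Araf) lower at an unadjusted p under 0.05. In that fit 150 of all 14814 tested genes fell and 243 rose. Mapk3, which encodes ERK1, had -0.18, and the MEK genes Map2k1 and Map2k2 had -0.13 and -0.10. Braf had -0.16. In the fits that left out a library 3 to 5 fell, with Braf and Map2k2 not called when the library left out was control replicate 1 or 3 or p57 KO replicate 2 or 3. Of 9 PI3K-AKT genes, 1 rose and 1 fell, against 11.6% of all tested genes in each direction. Their median log2 fold change was -0.03. Akt1 rose by 0.19 and Pik3cd had -0.15 (edgeR adjusted p = 0.00905, and 0.0558 without control replicate 3). With the fibroblast score Akt1 had 0.11 and Pik3cd -0.024 (adjusted p = 0.449 and 0.91 in edgeR).

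Of 9 other genes that respond to GDNF in mouse spermatogonia, 6 fell and 1 rose, against 11.6% of all tested genes in each direction. The median log2 fold change was -0.22. Id4 and Nanos2 are also in the list of spermatogonia markers, so the falls of these genes are counted in both lists. Id4, a marker of spermatogonial stem cells, had 76.8 ± 4.49 CPM in p57 KO and 111 ± 3.83 CPM in control (SD, n = 3 each; log2 fold change -0.54, edgeR adjusted p = 1.33e-08). The early growth response genes Egr3 and Egr2 had -0.47 and -0.26, and Mycn, a MYC family gene, -0.22. Nanos2, an RNA-binding regulator, had -0.92 and Ccnd2, the cyclin D2 gene, -0.13. Fos rose by 0.50, but its edgeR adjusted p was 0.0898 and 0.0872 when control replicate 1 or 2 was left out and 0.0797 when p57 KO replicate 1 was. The chemokine receptor gene Cxcr4 and the kinase gene Tec had -0.06 and 0.0081. With the fibroblast score Id4 and Egr3 remained called, at -0.44 (adjusted p = 0.000379 in edgeR) and -0.57 (0.00835). The calls of Nanos2, Egr2, Mycn, Ccnd2 and Fos were lost in that fit, at -0.44 for Nanos2 (adjusted p = 0.558 in edgeR) and -0.063 for Egr2 (0.769).

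Apart from Etv4, the relatives of the factors had lower mean levels per kb of exon than every member. Of 8 tested, 4 fell and 1 rose, against 11.6% of all tested genes in each direction. DESeq2 called 2 lower and 1 higher, against 1044 lower and 1403 higher of all 14814 tested genes. With the fibroblast score edgeR called 0, against 150 lower and 243 higher of all 14814. Etv4, an ETS factor of the same subfamily as Etv5, had 44.5 CPM per kb in p57 KO and 48.1 in control. Its log2 fold change was -0.11 (adjusted p = 0.0261 in edgeR), and the adjusted p was 0.0695 and 0.158 when control replicate 2 or 3 was left out and 0.105 when p57 KO replicate 3 was. Bcl6 had -0.42, Eomes -0.67 and Tbx6 -0.66, at 2.83, 1.2 and 1.14 CPM per kb in p57 KO. Tbx6 had an edgeR adjusted p of 0.0592 without p57 KO replicate 2. Etv1 rose by 1.43, at 0.296 CPM per kb in p57 KO and 0.109 in control, and with the fibroblast score its log2 fold change was 0.30 (adjusted p = 0.812 in edgeR). In that fit Eomes and Tbx6 had -0.63 and -0.78 (adjusted p = 0.208 and 0.364 in edgeR), and Bcl6 and Etv4 had -0.27 and -0.067 (0.391 and 0.73).

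**Figure D4:**
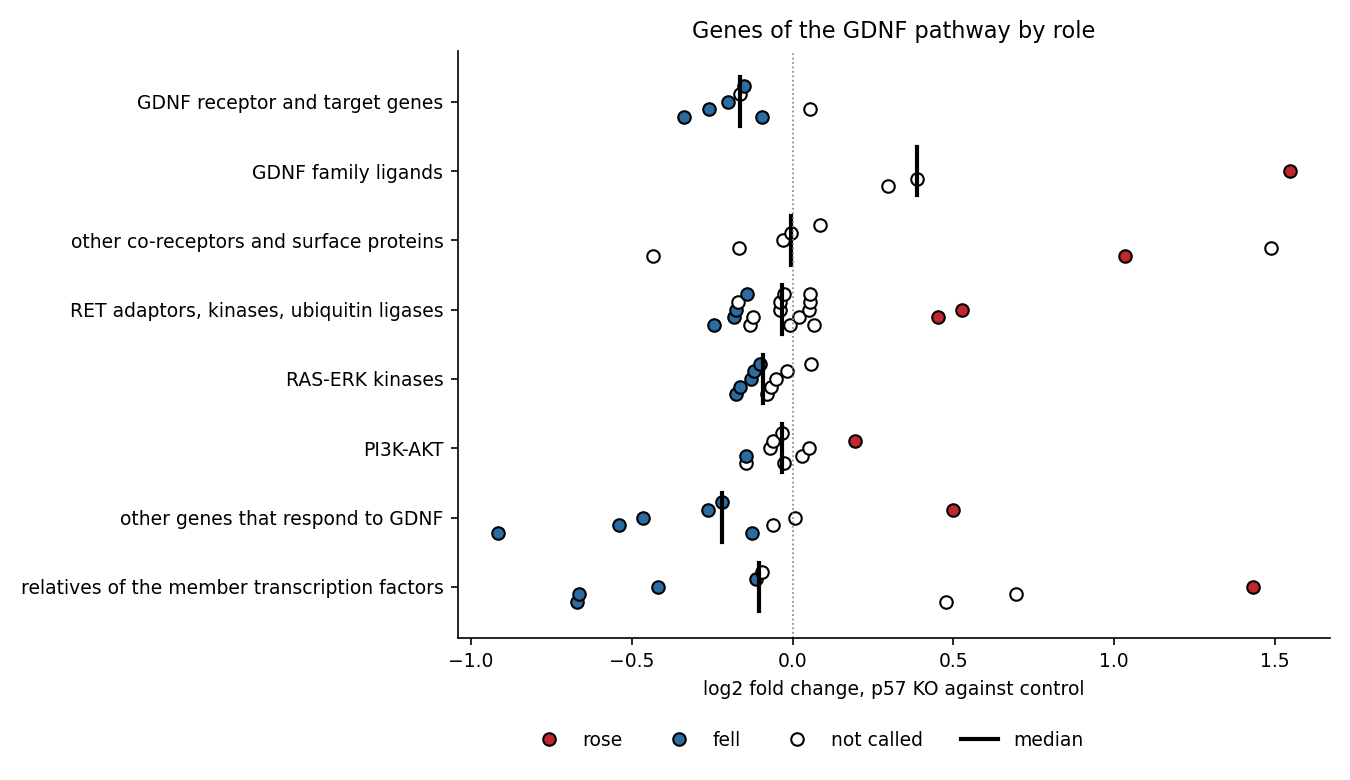
Log2 fold change, p57 KO against control, of each tested gene of the GDNF pathway, in rows by role (red rose, blue fell, white not called, black bar median). The receptor and target genes have a median of -0.16, the RAS-ERK kinases -0.09 and the other genes that respond to GDNF -0.22. The relatives of the factors have -0.10, the adaptors and the PI3K-AKT genes -0.03 each, and the other co-receptors -0.0040. The 3 ligands tested have 0.39.

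The genes whose pattern over the 6 libraries was closest to each member were found by the root mean square difference in log2 CPM, each gene centred on its own mean, among 9570 named genes of at least 10 CPM. For Gfra1 these were Hnrnph3 (0.00746) and Arid3b (0.0109), and for Etv5 they were Gpat2 (0.0101) and Fmr1 (0.0119). Usp12 (0.00896) and Ttc9c (0.0103) were closest to Bcl6b. Ret was followed least closely of the 5 genes that fell, by Cstf3 (0.0247) and Kcnc2 (0.0258), and Lhx1 by Elavl2 (0.0232) and Vma21 (0.0254). Klhdc4 (0.0150) and Arap3 (0.0163) were closest to Pou3f1, and Lrrc75a (0.0394) and Traf6 (0.0430) to T. None of the 7 genes was among the closest of another.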

How the data were processed

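RNA of 6 libraries was read as raw counts per gene, deposited by the authors with 1 column per library and no normalization. Per the submitters' processing notes, the tools included HTSeq 2.0.2, HISAT2 2.2.1, cutadapt 3.4 and bcl2fastq 2.20, with build mm10. No source used here gives the annotation, the strand setting or the treatment of multi-mapped reads. Positions and exon lengths came from GENCODE M21 (mm10). Promoter windows came from RefSeq (GRCm38.p6). The filter filterByExpr left 14814 genes. After TMM scaling, the test was the quasi-likelihood F-test of edgeR 4.0.16 (with limma 3.58.1 in R 4.3.3), group as the only term, robust dispersions, Benjamini-Hochberg adjustment over all tested genes. SE is the log2 fold change over the square root of F. Replicates of a group differed by more than sampling noise (chi-square per degree of freedom 1.69 to 5.97 over genes with at least 20 counts).

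Members, lists and tests were chosen with earlier results of these data known. Named were all members, Cdkn1c, tested ligands and co-receptors, up to 4 called genes of smallest p per other list, and the 2 closest patterns per member; a gene that this rule names is not reported here. Frs2, Grb10, Map2k2, Araf, Nanos2, Ccnd2, Fos, Cxcr4, Tec and Etv4 fall outside this rule. They were chosen after their values were seen, as were the markers named. Alternatives were RLE factors, DESeq2 1.42.0, limma-voom, other filters, a replicate block, each library left out and the fibroblast score.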

Additional observations from a re-analysis of the deposited data

How the results depend on the processing

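The 5 calls among the members held with RLE factors, DESeq2, limma-voom, no filter, at least 1 CPM in 3 libraries and the replicate block. For Bcl6b most of these lay near the threshold, with an adjusted p of 0.0449 in DESeq2 and 0.0475 in limma-voom. In edgeR it was 0.0408 with RLE factors, 0.0498 with at least 1 CPM in 3 libraries, 0.0438 with the block and 0.00694 with no filter. No member changed direction in any of the 13 alternatives. With 1 library left out, 4 to 5 members fell, at log2 fold changes of -0.17 to -0.14 for Gfra1, -0.39 to -0.30 for Ret, -0.23 to -0.17 for Etv5, -0.14 to -0.065 for Bcl6b and -0.32 to -0.23 for Lhx1. The difference in log2 Ret over Gfra1 was -0.22 to -0.15 with 1 library left out and -0.19 with a prior count of 2. This ratio was not fitted with the fibroblast score. Over all genes 1178 to 1893 fell and 1180 to 2136 rose with 1 library left out, against 1725 each, while 3 to 5 RAS-ERK kinases fell, 0 to 1 PI3K-AKT gene fell and 0 to 1 other gene that responds to GDNF rose. DESeq2 had 1044 genes lower and 1403 higher. Among them 3 RAS-ERK kinases and 2 relatives of the factors were lower, and 2 co-receptor genes higher. With the fibroblast score as a covariate 150 genes fell and 243 rose, 0 members fell (Gfra1 -0.10, Ret -0.16, Etv5 -0.12, Bcl6b -0.050 and Lhx1 -0.20), and of the other genes that respond to GDNF 2 fell and 0 rose. In that fit 0 adaptors, RAS-ERK kinases, PI3K-AKT genes, relatives, ligands and co-receptors were called in either direction. The cause of these changes was not tested. With the replicate number as a block, 1772 genes fell and 1934 rose and the log2 fold change of Ret was -0.34. With 3 libraries per group, the counts cannot tell whether the numbers pair the libraries. Deviations from the group means correlated at 0.19, 0.02 and -0.10 for same-numbered libraries over 14814 genes. Between libraries of unlike number the correlations ran from -0.28 to 0.27. T, with at most 184 counts per library, is the member limited most by depth.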
